A study of Mus musculus with 8 samples.

Results

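S-adenosylmethionine (SAM) was compared with vitamin B12 as a supplement to mouse embryonic fibroblasts (MEFs) at an early stage of reprogramming to pluripotency. The comparison takes 4 of the 8 bulk RNA-seq libraries of the series: 2 libraries with 100 µM SAM and 2 with 2 µM B12, 1 of each from MEF 61.3 and 1 of each from MEF 61.5. Every MEF line was of the C57BL/6 strain. All were heterozygous (+/T) for Rosa26-rtTA, a doxycycline-dependent transactivator, and for Tet-O-OSKM, an inducible cassette of Pou5f1 (Oct4), Sox2, Klf4 and Myc. Cells were moved from serum medium to iPSC medium, and RNA was taken after 72 h of continuous doxycycline together with the compound. The other 4 libraries came from the same MEFs and the same 72 h, with 2 µM B12 plus 2 µM PF-9366 (B12 + MAT2Ai) or with 10 µM NSC636819 (NSC). PF-9366 inhibits the SAM synthetase MAT2A, and NSC636819 inhibits KDM4A and KDM4B, which demethylate histones. These libraries enter the fit and serve for comparison. All 55487 genes of the deposited count table were considered, and the 19392 that passed a filter on low counts were tested. Each treatment rests on 2 embryos with 1 library each, and every library carried the cassette and received doxycycline. Cells with doxycycline alone were not analysed here, so each difference below is SAM against B12 and not SAM against no supplement.

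SAM is the methyl donor of the cell, and it is made from methionine by MAT2A. Vitamin B12 is the cofactor of methionine synthase, which returns homocysteine to methionine, so that B12 feeds SAM production from upstream while added SAM enters after that step. In the first days of reprogramming, fibroblasts that respond to the 4 factors take on epithelial features (the mesenchymal-to-epithelial transition), and most genes of the pluripotency network are switched on later. MEF cultures are prepared from whole embryo tissue and can hold other cells besides fibroblasts, such as macrophages and keratinocytes.

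The 8 libraries held between 27498180 and 38565685 counted reads, and the 4 compared here between 34611627 and 37761374. Levels are given as CPM, the counts scaled to library size with edgeR's trimmed mean of M-values (TMM) factors, always with the library of MEF 61.3 before that of MEF 61.5. Changes are log2 fold changes of SAM over B12 ± standard error (SE) from edgeR's quasi-likelihood fit with the embryo as a block, and a gene was called when its Benjamini-Hochberg adjusted p was below 0.05. The label was checked against fibroblast markers: all 30 members of the fibroblast identity list were detected, and their summed level was 43492 and 38603 CPM in SAM, against 39976 and 40377 CPM in B12. Col1a1, a chain of type I collagen, had 30361 and 25587 CPM in SAM, against 29771 and 29776 CPM in B12. Pdgfra, a receptor of mesenchymal cells, had 1060.1 and 773 CPM in SAM, against 1156 and 889.5 CPM in B12. Neither passed the test (adjusted p = 0.56 and 0.16). The 15 macrophage markers were also detected in every library, none of them at 0, with a summed level of 516 to 4366 CPM over the 4 libraries. In bulk RNA, fewer cells of a type and less RNA per cell cannot be told apart, and this holds for every cell-type marker below.

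SAM and B12 differed at 1495 of the 19392 genes tested (7.71%), of which 539 were higher in SAM (2.78%) and 956 lower (4.93%). Genes higher in SAM were led by epithelial genes, namely keratins, desmosomal proteins and cornified-envelope proteins, and included the 4 cassette genes. Genes lower in SAM were led by macrophage genes, namely lysozymes, C-type lectins, scavenger receptors and chemokines, with lysosomal and iron-storage genes beside them. All 1495 had the same sign in both MEFs. This follows largely from the calling, since a gene with opposite signs in the 2 embryos could hardly pass, and it is not read as replication. Only at the extreme did the higher genes reach larger folds, with 77 at 4-fold or more, against 17 of the lower genes. At 2-fold or more stood 200 higher and 353 lower genes, and the median absolute log2 fold change was 0.668 in both directions. The median log2 fold change over all tested genes was -0.0024. In 477 of the 539 higher genes both SAM libraries lay above both B12 libraries, and in 782 of the 956 lower genes both lay below. With 2 libraries on each side such separation also arises often without a difference. Its share over all tested genes was not counted, so here and below it describes the values and adds no evidence. Without the block for the embryo edgeR called 0 genes (1463 at an unadjusted p below 0.05), where DESeq2 with the block called 1064. Leaving out the SAM library of MEF 61.5 lowered the count to 898 genes, 270 of them higher and 628 lower.

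**Figure D1:**
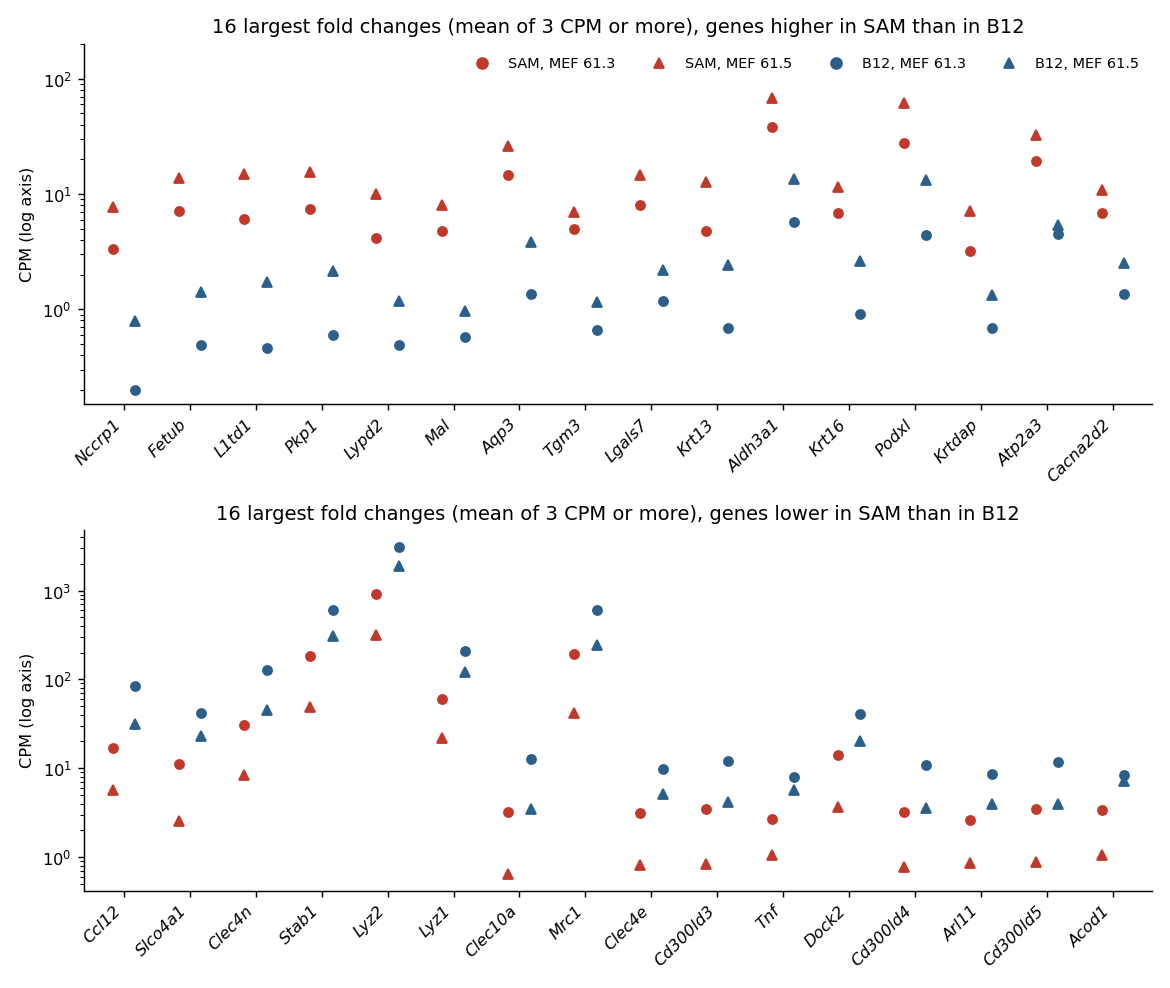
CPM on a log axis for the 16 genes with the largest fold change in each direction among those with a mean of at least 3 CPM, with SAM in red left of B12 in blue, circles for MEF 61.3 and triangles for MEF 61.5. Among genes higher in SAM each SAM symbol lies above the B12 symbol of the same shape, and among lower genes beneath it. The choice of genes with the same sign in both MEFs fixed this. For Clec10a the SAM circle (3.25 CPM) and the B12 triangle (3.52 CPM) nearly meet.

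The 4 cassette genes were all higher in SAM. Pou5f1 (chr17:35506018-35510772 in GRCm38), the Oct4 gene, had 10.2 and 20.8 CPM in SAM, against 4.13 and 8.10 CPM in B12 (log2 fold change 1.33 ± 0.12, edgeR adjusted p = 4.2e-05). Sox2 had 16.8 and 23.1 CPM in SAM, against 5.59 and 11.9 CPM in B12 (log2 fold change 1.24 ± 0.13, edgeR adjusted p = 1.0e-04). For Pou5f1 both SAM libraries lay above both B12 libraries, and the same held for Sox2. Klf4 (116 and 109 CPM in SAM, against 88.8 and 86.5 CPM in B12) and Myc (46.4 and 70.6 CPM in SAM, against 33.5 and 46.1 CPM in B12) differed less, with log2 fold changes of 0.35 ± 0.06 and 0.54 ± 0.08 (edgeR adjusted p = 0.0021 and 0.001). Reads of the cassette and of the endogenous genes fall on the same gene models and cannot be told apart. The log2 fold changes of the 4 genes ranged from 0.35 for Klf4 to 1.33 for Pou5f1, and the part of the cassette in them was not tested.

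Of the 36 members of the pluripotency network, 15 did not pass the count filter, among them Zfp42, Esrrb, Lin28a and Utf1, and 4 of the 21 tested were called, all higher. L1td1, an RNA-binding protein of embryonic stem cells, had 6.12 and 15.0 CPM in SAM, against 0.459 and 1.71 CPM in B12 (log2 fold change 3.31 ± 0.18, edgeR adjusted p = 4.1e-06), so that the lowest SAM library stood above the highest B12 library. Trim71, an RNA-binding protein of early embryos and a target of let-7, had 0.650 and 0.779 CPM in SAM, against 0.344 and 0.210 CPM in B12. Sall1 and Tet2, a transcription factor and a DNA demethylating enzyme, rose by 0.76 and 0.33 on the log2 scale. Nanog, a core factor of the network, had 0.561 and 0.890 CPM in SAM, against 0.258 and 0.473 CPM in B12 and did not pass the test (log2 fold change 0.98 ± 0.35, edgeR adjusted p = 0.13). The median log2 fold change of the 21 tested members was 0.33. The germline list held 1 called gene of 3 tested. This was Piwil2, a PIWI protein that silences transposons, at 1.83 and 2.92 CPM in SAM, against 1.23 and 1.26 CPM in B12 (log2 fold change 0.93 ± 0.23). Under DESeq2, without the SAM library of MEF 61.5 or without the B12 library of MEF 61.3, 1 pluripotency member was called higher, and without either B12 + MAT2Ai library 2 were.

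Keratins, the intermediate filament proteins of epithelia, were higher in SAM. Of 16 tested, 9 were called, all higher, with a median log2 fold change of 1.55, and their summed level was 96.4 and 207 CPM in SAM, against 31.7 and 75.7 CPM in B12. Among keratins of simple epithelia, Krt8 had 13.4 and 32.3 CPM in SAM, against 3.38 and 6.68 CPM in B12 (log2 fold change 2.17 ± 0.12, edgeR adjusted p = 4.2e-06). Krt18, its usual partner, was scarce at 0.384 and 0.946 CPM in SAM, against 0.487 and 0.683 CPM in B12 and did not pass the test (adjusted p = 0.84). Krt80, which the list groups with these but which is not confined to simple epithelia, had 9.07 and 16.2 CPM in SAM, against 2.32 and 4.02 CPM in B12. Keratins listed as stratified differed more, with a median log2 fold change of 1.99, against 0.71 for those listed as simple. Krt13, a keratin of mucosal epithelia, had 4.76 and 12.7 CPM in SAM, against 0.688 and 2.42 CPM in B12 (log2 fold change 2.52 ± 0.19, edgeR adjusted p = 1.4e-05). Krt16, a keratin of activated epidermis, had 6.80 and 11.49 CPM in SAM, against 0.917 and 2.60 CPM in B12 (log2 fold change 2.42 ± 0.18, edgeR adjusted p = 1.2e-05). For Krt8, Krt80, Krt13 and Krt16 the groups did not overlap. Krt14, a keratin of basal cells, was the most abundant at 41.4 and 91.5 CPM in SAM, against 12.7 and 34.2 CPM in B12 (log2 fold change 1.56 ± 0.11), with the lower SAM value, of MEF 61.3, next to the higher B12 value, of MEF 61.5. The pair Krt6a and Krt6b was nearly silent in B12. Krt6a had 81 and 125 reads in SAM, against 4 and 11 reads in B12, a ratio of 14.4 (95% exact interval 8.50 to 26.1, counting error only). Krt6b had 40 and 67 reads in SAM, against 2 and 6 in B12. Both are near-identical copies, and reads shared between them may be split or lost. Krt5, the partner of Krt14, had 0.414 and 0.528 CPM in SAM, against 0.0287 and 0.289 CPM in B12. Trp63, the transcription factor of basal keratinocytes, had 6.89 and 5.42 CPM in SAM, against 5.90 and 5.07 CPM in B12. Neither passed the test (adjusted p = 0.11 and 0.49).

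Genes of keratinocyte differentiation followed the same direction, with 12 of 18 tested members higher, 1 lower and a median log2 fold change of 1.52. Nccrp1, an F-box protein of stratified epithelia, had 3.31 and 7.76 CPM in SAM, against 0.201 and 0.788 CPM in B12 (log2 fold change 3.49 ± 0.27, edgeR adjusted p = 1.4e-05). Aqp3, the water and glycerol channel of basal keratinocytes, had 14.6 and 26.1 CPM in SAM, against 1.35 and 3.84 CPM in B12 (log2 fold change 3.01 ± 0.17, edgeR adjusted p = 4.2e-06). Lgals7, a galectin of stratified epithelia, had 8.04 and 14.6 CPM in SAM, against 1.18 and 2.21 CPM in B12 (log2 fold change 2.74 ± 0.13, edgeR adjusted p = 2.1e-06). In all 3 genes both SAM libraries lay above both B12 libraries, and MEF 61.5 had the higher value under either supplement. Cornified-envelope genes were lower in level. Tgm3, a transglutaminase that cross-links the envelope, had 4.99 and 6.98 CPM in SAM, against 0.659 and 1.16 CPM in B12 (log2 fold change 2.75 ± 0.27). Sprr1a, an envelope precursor, had 0.768 and 1.20 CPM in SAM, against 0.287 and 0.499 CPM in B12 (log2 fold change 1.32 ± 0.31). Krtdap, a secreted protein of the suprabasal epidermis, had 3.19 and 7.18 CPM in SAM, against 0.688 and 1.34 CPM in B12 (log2 fold change 2.37 ± 0.27, edgeR adjusted p = 1.6e-04). The lower member was Il1rn, the interleukin-1 receptor antagonist, at 29.2 and 27.2 CPM in SAM, against 38.5 and 36.4 CPM in B12 (log2 fold change -0.41 ± 0.09).

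Junction genes were split by type. Of 34 tested, 13 were called, all higher (median log2 fold change 0.33). Most of them belonged to desmosomes, the junctions that anchor keratin filaments (6 of 11, median 1.44), or to adhesion to the basement membrane (4 of 7, median 1.00). Pkp1, a desmosomal plaque protein, had 7.48 and 15.6 CPM in SAM, against 0.602 and 2.16 CPM in B12 (log2 fold change 3.11 ± 0.18, edgeR adjusted p = 4.2e-06). Dsp, desmoplakin, which ties keratins to the plaque, had 3.13 and 5.79 CPM in SAM, against 0.459 and 1.10 CPM in B12. Evpl, envoplakin, had 7.89 and 16.5 CPM in SAM, against 1.40 and 4.86 CPM in B12, and Perp, a desmosomal membrane protein induced by p53 and p63, had 15.1 and 25.01 CPM in SAM, against 5.02 and 9.02 CPM in B12. In these 4 genes the groups did not overlap. Itgb4, the integrin chain of hemidesmosomes, had the smallest p of all tested genes, with 65.8 and 116 CPM in SAM, against 15.7 and 31.0 CPM in B12 (log2 fold change 1.99 ± 0.07, edgeR adjusted p = 4.0e-07). Lamb3, a chain of its laminin ligand, rose by 1.00, and Col17a1, the collagen of hemidesmosomes, by 1.10 on the log2 scale. Of 11 tight-junction genes 2 were called, F11r at 0.50 ± 0.11 and Cldn3. Cldn3, a claudin, had 36 and 77 reads in SAM, against 1 and 11 reads in B12. Cdh1, E-cadherin, was the only called member of 5 at adherens junctions, at 6.86 and 9.82 CPM in SAM, against 1.95 and 2.26 CPM in B12 (log2 fold change 1.98 ± 0.15, edgeR adjusted p = 1.2e-05). Epcam, an epithelial adhesion molecule, stayed at 0.236 and 0.668 CPM in SAM, against 0.143 and 0.263 CPM in B12 (adjusted p = 0.16). Mal, an apical trafficking protein, and Podxl, an anti-adhesive sialomucin of the apical surface, had log2 fold changes of 3.05 ± 0.21 and 2.39 ± 0.11, the second at 27.6 and 61.2 CPM in SAM, against 4.44 and 13.1 CPM in B12.

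**Figure D2:**
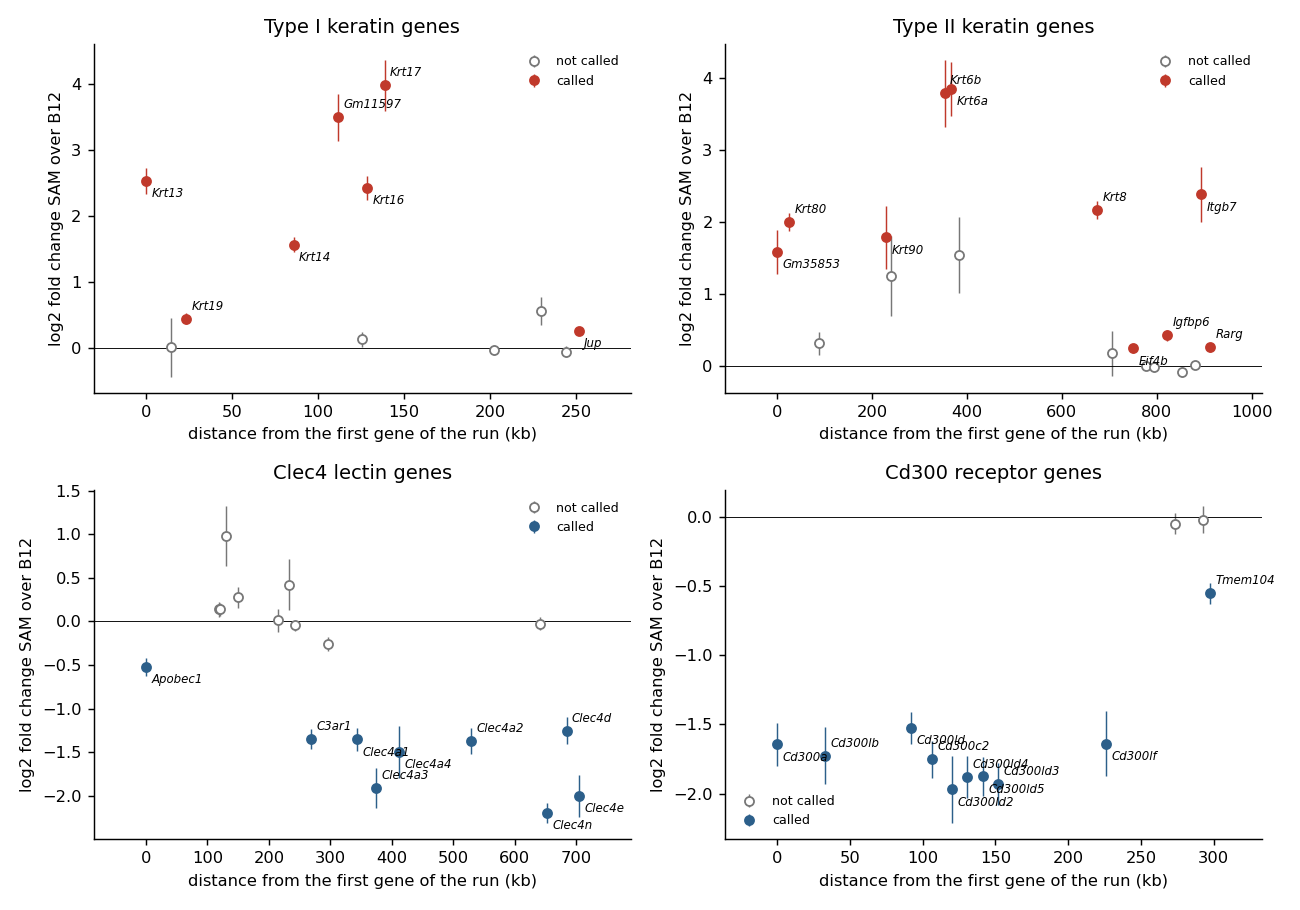
Log2 fold change of SAM over B12 with its SE (bars) for every tested gene in 4 runs of neighbouring genes, against the distance in kb from the first gene of the run, with called genes filled and named and the others open. In the type I keratin run 7 of 12 genes were called and in the type II run 10 of 18, all higher, whereas 9 of 18 in the Clec4 run and 10 of 12 in the Cd300 run were called lower.

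A pair of epithelial transcription factors, Ehf and Elf3, accounted for the calls among 9 tested epithelial regulators. Ehf had 2.87 and 6.34 CPM in SAM, against 0.487 and 0.499 CPM in B12 (log2 fold change 3.20 ± 0.28, edgeR adjusted p = 2.9e-05), with both SAM libraries above both B12 libraries, and Elf3 had 0.739 and 1.14 CPM in SAM, against 0.115 and 0.131 CPM in B12. Other known drivers of the epithelial state had too few reads to be tested, among them Grhl2, with 2 and 6 reads in SAM, against 0 and 0 in B12, and Esrp1. On the mesenchymal side the lists held few calls, to be read against the 7.71% called over all tested genes. Of 24 mesenchymal transcription factors 1 was called, Twist1 at 0.28 ± 0.07, and higher in SAM. Zeb1 and Snai2, repressors of E-cadherin, had log2 fold changes of -0.01 ± 0.08 and 0.03 ± 0.10 (adjusted p = 0.98 and 0.9). Of 23 collagen chains 1 was called, Col14a1 at -0.32 ± 0.08. Of 30 fibroblast identity genes 3 were called, all higher (Fap, Eng and Loxl2, at 0.35, 0.31 and 0.29). Of 38 HOX genes, which record position in the embryo, 0 were called by edgeR or DESeq2 (1 at an unadjusted p below 0.05 by edgeR). Without the SAM library of MEF 61.3, 0 fibroblast identity genes were called higher, and without the B12 library of MEF 61.5, 6 collagens were. The median log2 fold changes were 0.09 for collagens, 0.06 for fibroblast identity and 0.11 for HOX genes.

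Promoters of all genes called higher and of all genes called lower were searched for short motifs, as a description of their sequence. The windows run from 250 bases before to 50 bases after the start of a RefSeq transcript (GRCm38.p6), and 12005 tested genes had one, 387 of the higher and 703 of the lower. The 12 motifs were chosen after a wider look at the same promoters, both strands were read, and genes with several windows had more chances of a match. TGANTCA, the site of AP-1, was in 10.9% of the higher, 10.2% of the lower and 6.62% of all genes with a window. ATGCAAAT, the octamer bound by POU factors, was in 3.62% of the higher, 1.85% of the lower and 1.59% of all. GAGGAAGT, the site of PU.1, was in 9.82% of the lower genes, 3.10% of the higher and 3.68% of all. TCACATGA, the M-box bound by MITF and its relatives, was in 2.70% of the lower, 1.03% of the higher and 0.90% of all. AACCNGTT, read by grainyhead-like factors, was in 1.81% of the higher, 2.42% of the lower and 2.21% of all. CCACACCC, read by KLF factors, was in 6.46% of the higher, 4.98% of the lower and 4.42% of all. TTGCNNAA, the site of C/EBP factors, was in 15.6% of the lower, 10.9% of the higher and 10.4% of all. TATAAA, the TATA box, was in 14.2% of the higher, 12.9% of the lower and 9.60% of all. The antioxidant response element, TGACNNNGC, was in 19.1% of the lower, 14.5% of the higher and 16.6% of all. The CCAAT box (CCAAT) was in 37.5% of the higher, 38.4% of the lower and 42.7% of all, and the GC box (GGGCGG) in 63.0%, 56.8% and 65.0%. The E-box CACGTG was in 10.3% of the higher, 10.8% of the lower and 1317 of all 12005 genes. A match gives letters in a window and not a bound site. The promoters of Krtdap and Krt13 are shown because these genes stand among the 25 largest rises with a mean of at least 3 CPM and each holds an AP-1 match, in capitals. Krtdap lies on the plus strand, window chr7:30787655-30787954, with the match 81 bases before the start. Krt13 lies on the minus strand, window chr11:100121517-100121816, 1 of its 2 windows, with the match 196 bases before the start.
Krtdap: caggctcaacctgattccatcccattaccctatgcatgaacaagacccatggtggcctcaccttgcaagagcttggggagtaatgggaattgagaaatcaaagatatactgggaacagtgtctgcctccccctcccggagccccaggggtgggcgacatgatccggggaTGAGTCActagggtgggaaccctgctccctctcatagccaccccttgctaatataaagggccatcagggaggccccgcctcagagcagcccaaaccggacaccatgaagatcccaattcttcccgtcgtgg
Krt13: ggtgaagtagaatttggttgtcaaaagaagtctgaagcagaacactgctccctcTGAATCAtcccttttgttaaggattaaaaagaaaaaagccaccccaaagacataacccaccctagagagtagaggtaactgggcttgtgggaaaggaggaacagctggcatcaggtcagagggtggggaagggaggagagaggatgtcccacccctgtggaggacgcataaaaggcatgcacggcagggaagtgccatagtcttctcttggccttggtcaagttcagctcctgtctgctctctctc

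Macrophage genes were lower in SAM across markers, receptors and transcription factors. Of 15 macrophage markers 14 were called lower, with a median log2 fold change of -1.38, and 1 (Cx3cr1, 1.09 and 1.00 CPM in SAM, against 1.00 and 2.86 CPM in B12) did not pass the test (adjusted p = 0.18). Their summed level was 1526 and 516 CPM in SAM, against 4366 and 2518 CPM in B12. Lyz2, the lysozyme of macrophages and the most abundant marker, had 919 and 316 CPM in SAM, against 3106 and 1879 CPM in B12 (log2 fold change -2.15 ± 0.15, edgeR adjusted p = 9.7e-06). Csf1r, the receptor on which macrophages depend for survival, had 81.0 and 22.6 CPM in SAM, against 173 and 87.9 CPM in B12 (log2 fold change -1.49 ± 0.15, edgeR adjusted p = 6.8e-05). Adgre1, the F4/80 antigen, had 155 and 41.3 CPM in SAM, against 280.1 and 126 CPM in B12 (log2 fold change -1.20 ± 0.14, edgeR adjusted p = 1.9e-04). The marker sum was higher in MEF 61.3 than in MEF 61.5 under both treatments, and the groups did not overlap for Lyz2 and overlapped for Adgre1, where the SAM library of MEF 61.3 exceeded the B12 library of MEF 61.5. Within each embryo every called marker was lower in SAM, as the calling favours. The median over the 15 markers was -1.10 in MEF 61.3 and -1.69 in MEF 61.5, a difference that was not tested, with 1 library per treatment in each embryo.

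**Figure D3:**
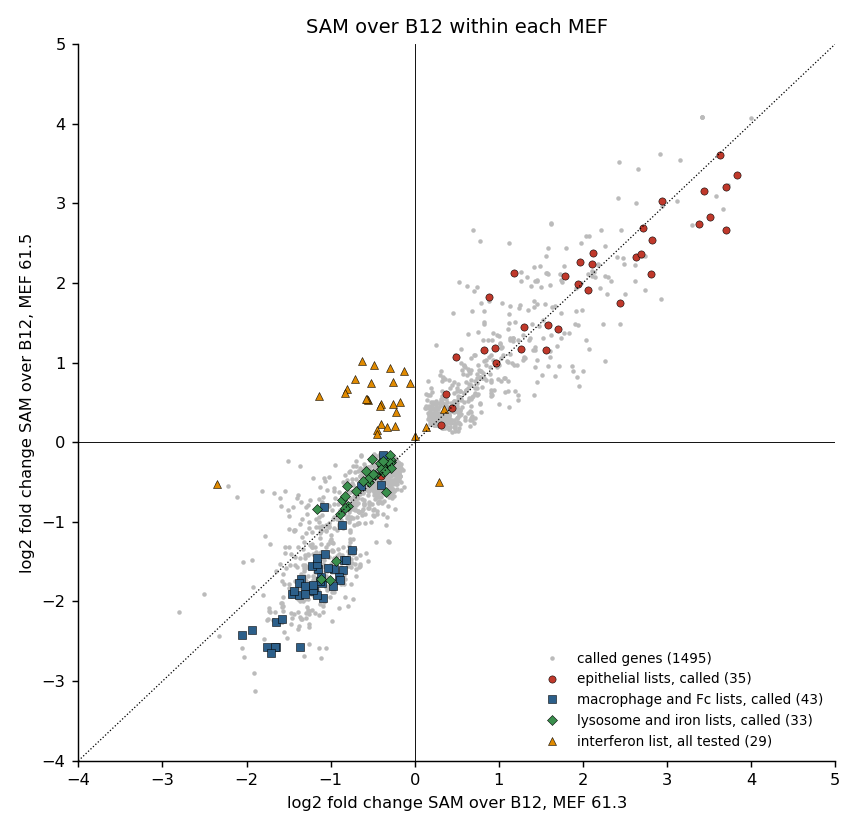
Log2 fold change of SAM over B12 within MEF 61.3 (x axis) and within MEF 61.5 (y axis), with all called genes in grey, called members of epithelial, macrophage, and lysosome and iron lists coloured, and the 29 tested interferon genes as triangles. Called genes lie in the lower left and upper right, which the calling favours. Macrophage genes lie mostly below the dotted line of equal change, and 24 interferon genes in the upper left.

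Surface receptors of macrophages were lower by similar amounts to the markers. Of 23 lectins and scavenger receptors tested 18 were lower (median -1.35), and of 11 Fc receptors and subunits of the phagocyte oxidase all 11 (median -1.32). Mrc1, the mannose receptor CD206, had 195 and 41.4 CPM in SAM, against 611 and 247 CPM in B12 (log2 fold change -2.07 ± 0.17, edgeR adjusted p = 1.8e-05). Stab1, a scavenger receptor that clears dead cells and modified proteins, had 185 and 49.2 CPM in SAM, against 604 and 307 CPM in B12 (log2 fold change -2.16 ± 0.16, edgeR adjusted p = 1.2e-05). Clec4n (Dectin-2), a receptor for fungal mannans, had 31.0 and 8.48 CPM in SAM, against 129 and 45.7 CPM in B12 (log2 fold change -2.20 ± 0.11, edgeR adjusted p = 3.5e-06). For Mrc1 and Stab1 both SAM libraries lay below both B12 libraries, by a small margin for Mrc1, where 195 CPM in SAM of MEF 61.3 stood against 247 CPM in B12 of MEF 61.5. Marco, which binds bacteria, had 12.7 and 3.81 CPM in SAM, against 32.9 and 22.9 CPM in B12. Msr1, scavenger receptor A, had 69.1 and 21.2 CPM in SAM, against 136 and 74.1 CPM in B12. Lgals3, galectin-3, which fibroblasts also express, differed less at 118 and 70.2 CPM in SAM, against 214 and 145 CPM in B12 (log2 fold change -0.95 ± 0.07). Cd163, a hemoglobin scavenger receptor, was scarce at 0.266 and 0.0834 CPM in SAM, against 0.459 and 0.184 CPM in B12 and did not pass the test (adjusted p = 0.38). Fcgr2b, the inhibitory Fc receptor, had 17.8 and 4.98 CPM in SAM, against 53.5 and 23.5 CPM in B12 (log2 fold change -1.85 ± 0.12, edgeR adjusted p = 7.0e-06). Ncf1, a cytosolic subunit of the oxidase, had 16.4 and 6.54 CPM in SAM, against 44.3 and 24.0 CPM in B12 (log2 fold change -1.62 ± 0.10, edgeR adjusted p = 4.2e-06). Cyba, an oxidase subunit found in many cell types, differed least in that list, at -0.60 ± 0.09.

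Transcription factors of the lineage went the same way in part, with 8 of 14 lower and a median of -0.57. Spi1 (PU.1), the factor that specifies macrophages, had 12.4 and 4.34 CPM in SAM, against 32.4 and 21.8 CPM in B12 (log2 fold change -1.78 ± 0.16, edgeR adjusted p = 3.7e-05). Ikzf1, Tfec and Irf8, factors of blood cells and macrophages, had log2 fold changes of -1.62 ± 0.17, -1.59 ± 0.16 and -1.08 ± 0.16. Spic, the factor of iron-recycling macrophages, was called on 2 and 0 reads in SAM, against 17 and 1 reads in B12, so that 1 library carried it. Without the B12 library of MEF 61.3 its adjusted p was 0.67. Complement genes lower in SAM (8 of 18) were the 3 chains of C1q and C3 with Cfp and 3 receptors. C1qb had 55.8 and 20.8 CPM in SAM, against 131 and 72.1 CPM in B12 (log2 fold change -1.48 ± 0.11). C3, which fibroblasts make, had 1759 and 1229.8 CPM in SAM, against 1998 and 1603 CPM in B12 (log2 fold change -0.28 ± 0.07, edgeR adjusted p = 0.034).

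Promoters of 4 of these lower genes are shown for the PU.1 motif, in capitals, whose share was 9.82% of lower genes: Ctss, a cathepsin of antigen-presenting cells at -1.37 ± 0.09, Hpgds, which makes prostaglandin D2, at -1.78 ± 0.14, Mmp12, the macrophage elastase, at -1.39 ± 0.12, and Pf4, a chemokine, at -1.55 ± 0.12 on the log2 scale. The motif stands on the gene's own strand in Hpgds and on the opposite strand, where it reads ACTTCCTC, in the other 3. The Ctss window is chr3:95526536-95526835 on the plus strand, with the match beginning 2 bases before the start and running across it. Hpgds runs on the minus strand, window chr6:65144681-65144980, with the match 49 bases before the start. Mmp12 has the window chr9:7344147-7344446 on the plus strand, 1 of its 2 windows, with the match 88 bases before the start. Pf4 has the window chr5:90772185-90772484 on the plus strand, with the match 10 bases before the start.
Ctss: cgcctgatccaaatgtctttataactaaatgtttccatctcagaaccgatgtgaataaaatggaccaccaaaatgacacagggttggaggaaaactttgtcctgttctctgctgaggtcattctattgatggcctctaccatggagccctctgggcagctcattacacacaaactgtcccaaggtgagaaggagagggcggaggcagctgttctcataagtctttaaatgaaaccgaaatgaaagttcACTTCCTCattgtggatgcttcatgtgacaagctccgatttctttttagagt
Hpgds: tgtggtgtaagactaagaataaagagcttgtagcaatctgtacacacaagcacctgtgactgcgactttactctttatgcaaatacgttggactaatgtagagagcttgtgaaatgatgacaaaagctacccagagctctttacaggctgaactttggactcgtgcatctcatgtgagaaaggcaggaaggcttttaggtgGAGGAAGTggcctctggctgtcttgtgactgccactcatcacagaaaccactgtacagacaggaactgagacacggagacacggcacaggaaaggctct
Mmp12: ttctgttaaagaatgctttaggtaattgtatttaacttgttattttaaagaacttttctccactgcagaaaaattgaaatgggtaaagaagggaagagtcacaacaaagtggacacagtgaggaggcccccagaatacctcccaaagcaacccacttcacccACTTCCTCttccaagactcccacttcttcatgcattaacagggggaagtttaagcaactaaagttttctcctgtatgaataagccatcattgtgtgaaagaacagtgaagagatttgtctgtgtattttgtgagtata
Pf4: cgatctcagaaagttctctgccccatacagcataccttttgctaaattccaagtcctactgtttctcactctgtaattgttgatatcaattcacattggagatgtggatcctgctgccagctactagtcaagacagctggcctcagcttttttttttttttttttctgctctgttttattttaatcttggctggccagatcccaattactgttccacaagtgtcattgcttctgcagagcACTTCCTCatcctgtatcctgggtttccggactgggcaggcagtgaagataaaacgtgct

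Lists of secreted signals and their receptors held lower genes too. Of 30 chemokines and their receptors 12 were called, all lower (median -0.36). Ccl12, a ligand of Ccr2, had 16.9 and 5.76 CPM in SAM, against 84.8 and 31.3 CPM in B12 (log2 fold change -2.35 ± 0.17, edgeR adjusted p = 9.7e-06). Ccl2, the main monocyte attractant, had 127 and 78.9 CPM in SAM, against 222 and 128 CPM in B12 (log2 fold change -0.75 ± 0.09, edgeR adjusted p = 2.6e-04). Its neighbour Ccl7 had 100.2 and 77.5 CPM in SAM, against 175 and 115 CPM in B12 (log2 fold change -0.69 ± 0.09). Ccl12 and Ccl2 both had their lowest value in SAM of MEF 61.5, and the B12 library of MEF 61.5 was near the SAM library of MEF 61.3 for Ccl2 (128 and 127 CPM). Cytokines and their receptors had 10 of 32 lower (median -0.20). Tnf, the inflammatory cytokine TNF, had 2.69 and 1.06 CPM in SAM, against 8.03 and 5.73 CPM in B12 (log2 fold change -1.92 ± 0.18, edgeR adjusted p = 4.8e-05). Csf2rb, the shared chain of the receptors for GM-CSF, IL-3 and IL-5, had 7.92 and 2.17 CPM in SAM, against 21.8 and 10.2 CPM in B12 (log2 fold change -1.74 ± 0.14, edgeR adjusted p = 1.7e-05). Il33, an alarmin of stromal cells, had 231 and 158 CPM in SAM, against 295 and 187 CPM in B12 (log2 fold change -0.30 ± 0.06). Without the SAM library of MEF 61.5, 5 members of the cytokine list were called lower, and 6 without that of MEF 61.3. The macrophage marker sum given above moved with these lists, and its part was not tested. Among lipid mediators 6 of 13 were lower and 2 higher. The lower ones were led by Hpgds, at 7.83 and 2.503 CPM in SAM, against 23.2 and 11.04 CPM in B12, and Alox5ap, which presents arachidonate to 5-lipoxygenase, at 9.90 and 3.92 CPM in SAM, against 27.7 and 15.0 CPM in B12. Ptgs2 (cyclooxygenase-2), one of the higher ones, had 8.60 and 17.9 CPM in SAM, against 5.85 and 12.4 CPM in B12, and Cyp4f39, a fatty acid hydroxylase, had 1.92 and 5.03 CPM in SAM, against 0.143 and 0.710 CPM in B12.

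Lysosomal genes were lower by smaller amounts. Of 39 tested 22 were called, all lower, with a median log2 fold change of -0.28, and their summed level was 9284 and 6993 CPM in SAM, against 12159 and 8664 CPM in B12. Ctsd, the aspartic protease cathepsin D, had 485 and 296 CPM in SAM, against 839 and 518 CPM in B12 (log2 fold change -0.80 ± 0.06, edgeR adjusted p = 1.4e-05). Ctsb, cathepsin B, had 1299 and 835 CPM in SAM, against 1896 and 1181 CPM in B12 (log2 fold change -0.52 ± 0.06, edgeR adjusted p = 2.5e-04). Values of the 2 embryos interleaved for Ctsb, where SAM of MEF 61.3 stood above B12 of MEF 61.5, while within each embryo SAM was lower. Gpnmb, a lysosomal glycoprotein of macrophages and pigment cells, had 103 and 35.99 CPM in SAM, against 224 and 118 CPM in B12 (log2 fold change -1.40 ± 0.11). Lipa, which hydrolyses cholesteryl esters, had a log2 fold change of -0.66 ± 0.06, and Lamp1, an abundant membrane protein of every lysosome, had -0.23 ± 0.06 (edgeR adjusted p = 0.043). Tested against a minimum log2 change of 0.5 (edgeR's glmTreat), 5 members were called. The macrophage marker sum moved with this list, at 1526 and 516 CPM in SAM, against 4366 and 2518 CPM in B12, and its part in the lysosomal difference was not tested.

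Genes of iron and heme handling were lower in 11 of 18 tested, with a median of -0.36, and the other 7 did not pass the test. Without the SAM library of MEF 61.3, 7 were called lower. Fth1, the ferritin heavy chain, had 1149 and 778 CPM in SAM, against 2039.7 and 1385 CPM in B12 (log2 fold change -0.83 ± 0.06, edgeR adjusted p = 1.4e-05), the largest fall in mean CPM among called genes after Lyz2. Hmox1, heme oxygenase, had 144 and 63.8 CPM in SAM, against 276 and 179.5 CPM in B12 (log2 fold change -1.19 ± 0.13, edgeR adjusted p = 1.1e-04). Tfrc, the transferrin receptor, which iron-poor cells raise, had 54.9 and 32.1 CPM in SAM, against 123 and 57.2 CPM in B12, and fell by 1.00 ± 0.08 on the log2 scale (edgeR adjusted p = 1.3e-05). Slc40a1, ferroportin, the only known iron exporter, had 23.3 and 18.5 CPM in SAM, against 41.4 and 29.5 CPM in B12 (log2 fold change -0.75 ± 0.08, edgeR adjusted p = 1.4e-04). In these 4 genes, of storage, heme breakdown, uptake and export, both SAM libraries lay below both B12 libraries. The NRF2 and glutathione list was divided, with 6 of 35 lower and 4 higher and a median of -0.01. Of 21 target enzymes 5 were lower, among them Prdx1, a peroxiredoxin, at 507 and 433 CPM in SAM, against 809 and 556 CPM in B12. Gclm, the modifier subunit of glutathione synthesis, had 65.9 and 52.9 CPM in SAM, against 91.2 and 72.7 CPM in B12. Of 14 glutathione transferases 4 were higher and 1 lower, the higher ones led by Gsta4 at 11.6 and 20.0 CPM in SAM, against 5.59 and 9.30 CPM in B12 (log2 fold change 1.09 ± 0.11). Nqo1, a standard NRF2 target, had 9.07 and 11.6 CPM in SAM, against 7.97 and 8.25 CPM in B12 (adjusted p = 0.13). The 4 higher calls of the NRF2 and glutathione list became 1 without the SAM or the B12 library of MEF 61.5, and 2 under DESeq2, without SAM of MEF 61.3 or without either B12 + MAT2Ai library. Its 6 lower calls became 3 without SAM of MEF 61.3. Macrophage marker levels moved with the iron list too, and their part was not tested.

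Of 46 tested genes that make and use SAM and methionine, 4 were called, 2 in each direction, against 7.71% of all genes tested, with a median log2 fold change of -0.03. Ahcy, which hydrolyses S-adenosylhomocysteine, the product of SAM-dependent methylation, had 77.2 and 105 CPM in SAM, against 66.2 and 82.2 CPM in B12 (log2 fold change 0.29 ± 0.06, edgeR adjusted p = 0.014). Cth, which makes cysteine from cystathionine, had 9.46 and 12.1 CPM in SAM, against 7.62 and 8.46 CPM in B12 (log2 fold change 0.42 ± 0.10, edgeR adjusted p = 0.03). Ahcyl2 and Smox, a relative of Ahcy and spermine oxidase, fell by 0.30 and 0.36 on the log2 scale. Mat2a had 172 and 179 CPM in SAM, against 195 and 185 CPM in B12 (adjusted p = 0.34). Mtr, methionine synthase, had 44.9 and 39.6 CPM in SAM, against 45.6 and 43.5 CPM in B12 (adjusted p = 0.66). Of 12 SAM-consuming enzymes and 11 genes of B12 uptake and processing edgeR called 0 (1 at an unadjusted p below 0.05 in each), and DESeq2 called 1 of the 46 genes of the whole list, higher. These calls of the SAM and methionine list became 0 in the fit on SAM and B12 alone and without the SAM or the B12 library of MEF 61.5. Histone and DNA methylation genes had 2 of 28 called, both higher, and 0 under DESeq2, in the fit on SAM and B12 alone or without the SAM library of MEF 61.5. Ezh2, the H3K27 methyltransferase, had 36.2 and 43.1 CPM in SAM, against 31.2 and 32.3 CPM in B12, and Psip1, a reader of H3K36 methylation, had 91.2 and 111 CPM in SAM, against 76.3 and 91.6 CPM in B12. Setd2, which trimethylates H3K36, and the demethylases Kdm4a and Kdm4b had log2 fold changes of -0.08 ± 0.09, 0.02 ± 0.06 and -0.01 ± 0.07. The folate and serine pathway had 3 of 16 called, and 0 under DESeq2, in the fit on SAM and B12 alone, without the SAM library of MEF 61.5 or without either B12 + MAT2Ai library. Phgdh, the entry enzyme of serine synthesis, was at 0.23 ± 0.06 on the log2 scale, Mthfd1l, a mitochondrial folate enzyme, at 0.35 ± 0.09, and Aldh1l1, which oxidises formyl-tetrahydrofolate, at -0.38 ± 0.09. Adenosine and purine handling had 6 of 19 called, all lower, led by Entpd1 (CD39), an ectonucleotidase of immune cells, at 3.07 and 1.42 CPM in SAM, against 8.34 and 4.23 CPM in B12. The other 5 were P2ry6, P2rx7, P2rx4, Ampd3 and Slc28a2. Without the SAM library of MEF 61.3, 3 of the list were called. The macrophage marker sum moved with this list as well (1526 and 516 CPM in SAM, against 4366 and 2518 CPM in B12), and its part was not tested.

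Retinoid and aldehyde metabolism had 6 of 18 tested genes higher and 2 lower, with a median of 0.05. Over all tested genes 2.78% were higher and 4.93% lower. Aldh3a1, an aldehyde dehydrogenase of cornea and stratified epithelia and a target of the aryl hydrocarbon receptor, had 37.9 and 68.5 CPM in SAM, against 5.76 and 13.5 CPM in B12 (log2 fold change 2.51 ± 0.14, edgeR adjusted p = 4.1e-06). Adh7, an alcohol dehydrogenase that oxidises retinol, had 25.1 and 26.5 CPM in SAM, against 14.4 and 15.1 CPM in B12 (log2 fold change 0.80 ± 0.09, edgeR adjusted p = 1.1e-04). Aldh1a3, which makes retinoic acid, had 19.1 and 20.7 CPM in SAM, against 8.77 and 15.2 CPM in B12 (log2 fold change 0.77 ± 0.14). Both cellular retinoic acid binding proteins, Crabp1 and Crabp2, rose by 0.41 and 0.49 on the log2 scale. Dhrs3, which returns retinal to retinol, fell by 0.45 on the log2 scale, at 31.8 and 31.4 CPM in SAM, against 45.1 and 41.4 CPM in B12. In Aldh3a1 and Adh7 the groups did not overlap. Sterol and lipid genes had 6 of 38 lower and 2 higher, to be read against the same shares, 4.93% and 2.78%. Plin2, the coat of lipid droplets, had 136 and 81.9 CPM in SAM, against 258 and 161 CPM in B12. Fabp5, a fatty acid binding protein, had 59.7 and 53.7 CPM in SAM, against 123 and 81.2 CPM in B12, and Abcg1, a cholesterol exporter, had 1.51 and 0.695 CPM in SAM, against 3.12 and 1.498 CPM in B12. The macrophage marker sum moved with these lower genes, and its part was not tested.

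Signalling and cell-cycle lists held 1 to 6 calls each, with shares from below to above the 7.71% of all tested genes. In NOTCH signalling 3 of 13 were higher. The receptor Notch4 had 1.48 and 3.23 CPM in SAM, against 0.516 and 0.657 CPM in B12, the ligand Jag2 had 0.709 and 1.92 CPM in SAM, against 0.229 and 0.552 CPM in B12, and the target Hes1 rose by 0.46 on the log2 scale. For EGF and FGF signalling 3 of 28 were higher and 3 lower. The epithelial ligands Btc (betacellulin) and Epgn (epigen) and the receptor Fgfr3 were higher, the last at 7.51 and 13.7 CPM in SAM, against 3.47 and 6.70 CPM in B12 (log2 fold change 1.06 ± 0.11, edgeR adjusted p = 1.2e-04). The ligands Fgf2 and Fgf10 and the ERK feedback phosphatase Dusp6 were lower, the last at 10.8 and 10.99 CPM in SAM, against 19.6 and 18.7 CPM in B12 (log2 fold change -0.81 ± 0.08, edgeR adjusted p = 5.1e-05). WNT signalling had 4 of 41 higher (the ligand Wnt2, the receptor Lgr6, the effector Tcf7 and the inhibitor Sfrp2) and 2 lower (Wnt5b and the inhibitor Dkk2). Lgr6, a marker of epithelial stem cells, had 2.84 and 6.04 CPM in SAM, against 1.32 and 3.42 CPM in B12. TGF-beta and BMP signalling had 2 of 38 higher and 3 lower. Tgfb1 had 41.5 and 26.6 CPM in SAM, against 65.8 and 48.9 CPM in B12 (log2 fold change -0.77 ± 0.09, edgeR adjusted p = 1.4e-04). The BMP target Id1 had 14.5 and 34.3 CPM in SAM, against 10.1 and 20.6 CPM in B12 (log2 fold change 0.64 ± 0.09, edgeR adjusted p = 6.4e-04). Of 39 cell-cycle genes 1 was called, Ccnd1, cyclin D1, at 145 and 183 CPM in SAM, against 116 and 123 CPM in B12 (log2 fold change 0.45 ± 0.07, edgeR adjusted p = 0.0016). Mki67, a proliferation marker, had 206 and 203 CPM in SAM, against 164 and 201 CPM in B12 (adjusted p = 0.52). Without the SAM library of MEF 61.3, 7 cell-cycle genes were called higher, and without the B12 library of MEF 61.3 or of MEF 61.5, 5 and 2. Without the SAM library of MEF 61.5 the higher calls became 1 for NOTCH, 1 for EGF and FGF and 2 for WNT signalling, and the lower calls 1 for EGF and FGF, 0 for WNT and 1 for TGF-beta and BMP signalling. Markers of other cell types had 4 of 38 higher and 1 lower. Stmn2, a microtubule protein of neurons, had 24.9 and 51.5 CPM in SAM, against 8.43 and 10.1 CPM in B12 (log2 fold change 1.99 ± 0.14, edgeR adjusted p = 9.7e-06). Nes, an intermediate filament of progenitors, had 14.6 and 20.2 CPM in SAM, against 6.91 and 13.1 CPM in B12, and Tek, an angiopoietin receptor of endothelium, had 96.9 and 104 CPM in SAM, against 74.2 and 77.9 CPM in B12.

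**Figure D4:**
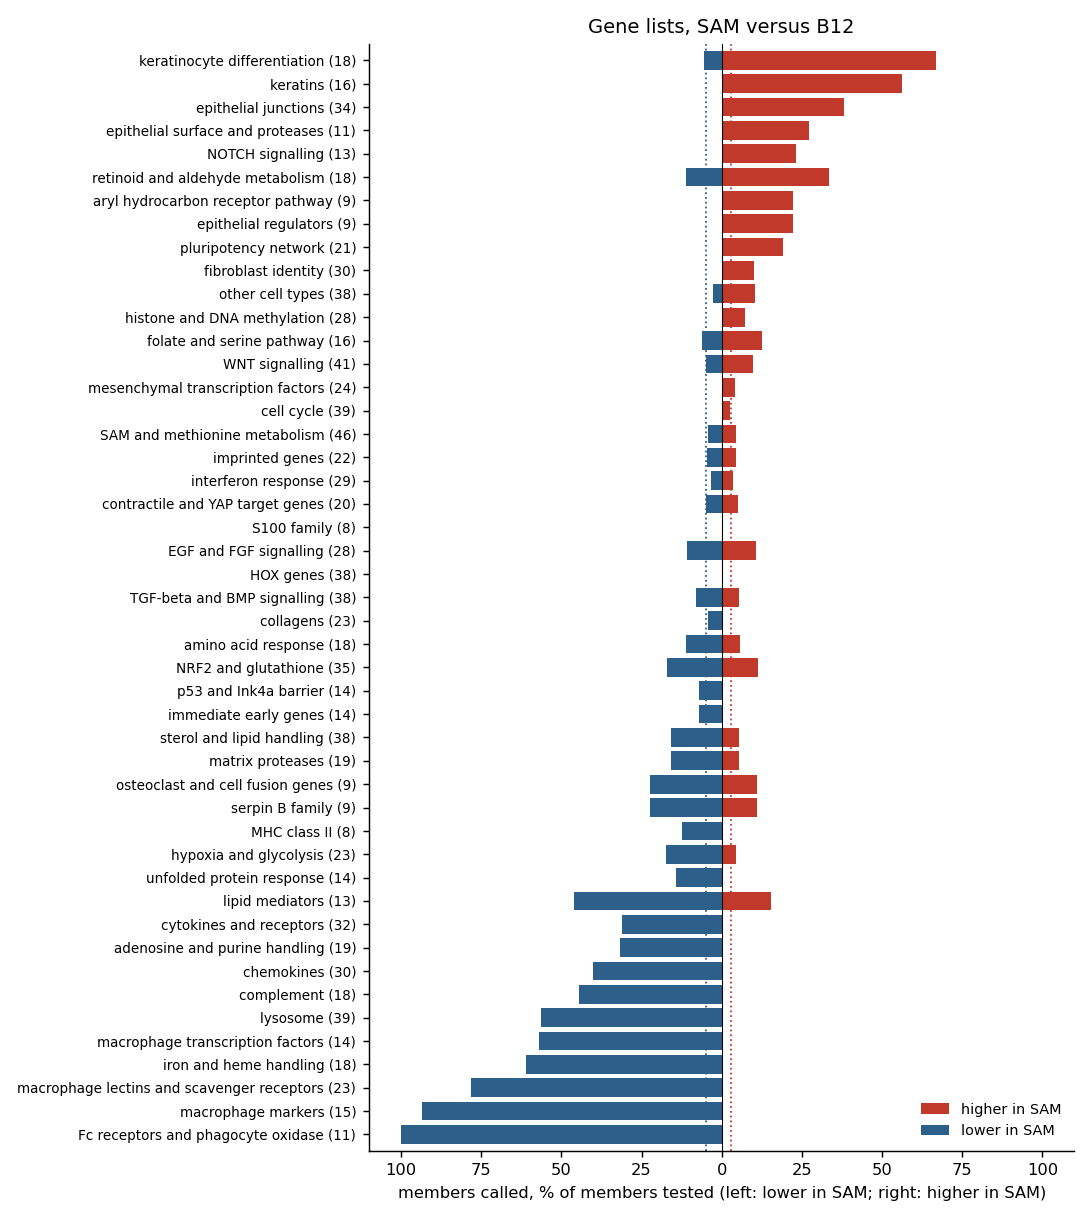
Share of tested members called higher (red, to the right) and lower (blue, to the left) in SAM than in B12 for each list with 8 or more tested members, whose number stands in brackets, with dotted lines at the shares over all tested genes (2.78% higher and 4.93% lower). Keratinocyte differentiation (12 of 18) and keratins (9 of 16) stand at the red end, and Fc receptors and phagocyte oxidase (11 of 11) and macrophage markers (14 of 15) at the blue end.

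Some called genes of one direction lay side by side. Of the 539 higher genes 51 had at least 3 other higher genes within 500 kb, and 49 of these lay in 9 runs of at least 4 (GRCm38 coordinates). Of the 956 lower genes 155 had at least 3 other lower genes so near, and 140 of these lay in 24 runs. How often tested genes in general lie so near each other was not counted, so the counts are a description only. Many of these runs hold tandem copies of one family, whose members share sequence and in part reads. The run of type I keratins, chr11:100117327-100397763, held Krt13, Krt19, Krt14, Gm11597, Krt16, Krt17 and Jup (plakoglobin, a desmosomal protein). That of type II keratins, chr15:101322888-102257517, held Krt80, Krt90, Krt6b, Krt6a and Krt8 with Itgb7, Igfbp6, Eif4b, Rarg and Gm35853. On the same chromosome, chr15:74721204-75111970 held Slurp1 and Lypd2, small secreted or membrane-anchored proteins of the Ly6 family, with Ly6c1, Ly6c2 and Them6. Slurp1, a ligand of acetylcholine receptors in skin, had 11.3 and 24.4 CPM in SAM, against 2.21 and 5.97 CPM in B12 (log2 fold change 2.16 ± 0.12, edgeR adjusted p = 4.2e-06). Lypd2 had 4.14 and 10.1 CPM in SAM, against 0.487 and 1.18 CPM in B12 (log2 fold change 3.09 ± 0.26, edgeR adjusted p = 2.1e-05). The Sprr run on chromosome 3, 5 of 9 tested genes, holds envelope precursors at under 2 CPM for Sprr1a and Sprr3. A run of pancreatic amylase genes, chr3:113147656-113356658, was called at all 5 tested genes. Amy2a2 had 29 and 81 reads in SAM, against 1 and 3 reads in B12 (ratio 28.7, 95% exact interval 10.9 to 107.3, counting error only). Amy2a3 and Amy2a4 had the same reads in all 8 libraries, so these copies count as 1 measurement. Amy2b, which differs in sequence, had 10 and 16 reads in SAM, against 1 and 1 in B12.

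Several runs of lower genes were families of myeloid receptors, and others held chemokines (Ccl2, Ccl7, Ccl12 and Ccl8), Slfn and Mup copies or unrelated neighbours. The Cd300 run, chr11:114890041-115247023, had 10 of 12 tested genes lower, and Cd300ld3 had 3.52 and 0.834 CPM in SAM, against 12.01 and 4.13 CPM in B12 (log2 fold change -1.93 ± 0.15, edgeR adjusted p = 1.4e-05). The paired immunoglobulin-like receptors on chromosome 7 (Pirb, Pira2, Lilra6, Lair1 and predicted genes) had 11 of 16 lower. The Clec4 run on chromosome 6 had 9 of 18, with C3ar1 and Apobec1 besides the lectins. The Ms4a run on chromosome 19 had 7 of 10. All 4 tested genes of chr2:91082390-91214098 were lower, namely Spi1, Madd, Nr1h3 (the sterol receptor LXR alpha) and Acp2 (a lysosomal phosphatase), at -1.78 ± 0.16, -0.31 ± 0.08, -0.52 ± 0.13 and -0.37 ± 0.06. Naip1, Naip2, Naip3, Naip5 and Naip6, sensors of bacterial flagellin and secretion systems and their relatives, made up 5 of 6 tested genes of a run on chromosome 13. Among 53 tested genes that shared all 8 counts with another, 3 were called higher and 2 lower. Among the 10 lower genes with the largest CPM difference, mt-Co3 and Gm28437 had nearly the same values, and mt-Co3, a mitochondrial subunit of cytochrome oxidase, had 2490.1 and 1979 CPM in SAM, against 3046 and 2615 CPM in B12, so that they count as 1 measurement.

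SAM was also set against the other treatments of the same embryos. SAM against NSC gave 1847 calls (9.52%), 858 higher (4.42%) and 989 lower (5.10%). SAM against B12 + MAT2Ai gave 1584 calls (8.17%), 651 higher (3.36%) and 933 lower (4.81%). These comparisons share the SAM libraries with SAM against B12, so their values are given side by side and their likeness is not read as support. Of the 539 genes higher than in B12, 383 were called higher than in NSC and 399 higher than in B12 + MAT2Ai, and of the 956 lower genes 574 and 656 were called lower. All 9 called keratins and all 13 called junction genes were called in each of the 3 comparisons. Krt8 had 13.4 and 32.3 CPM in SAM, 3.19 and 8.17 CPM in B12 + MAT2Ai, 2.74 and 8.51 CPM in NSC and 3.38 and 6.68 CPM in B12. Lyz2 had 919 and 316 CPM in SAM, 2772 and 1445 CPM in B12 + MAT2Ai, 2498 and 1404 CPM in NSC and 3106 and 1879 CPM in B12. For both genes the 2 SAM libraries stood apart from the 6 others in their direction. NSC against B12 gave 370 calls (1.91%), 55 higher (0.284%) and 315 lower (1.62%). B12 + MAT2Ai against B12 gave 17 calls (0.0877%), 14 higher (0.0722%) and 3 lower (0.0155%). Macrophage lists were also lower in NSC than in B12, by less than in SAM. Of 15 macrophage markers 5 were called lower in NSC (median -0.49), and of 23 lectins and scavenger receptors 8 (median -0.545). In B12 + MAT2Ai the medians against B12 were -0.28 and -0.19, with 0 and 1 called lower. Of the 956 genes lower in SAM, 140 were called lower in NSC than in B12.

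**Figure D5:**
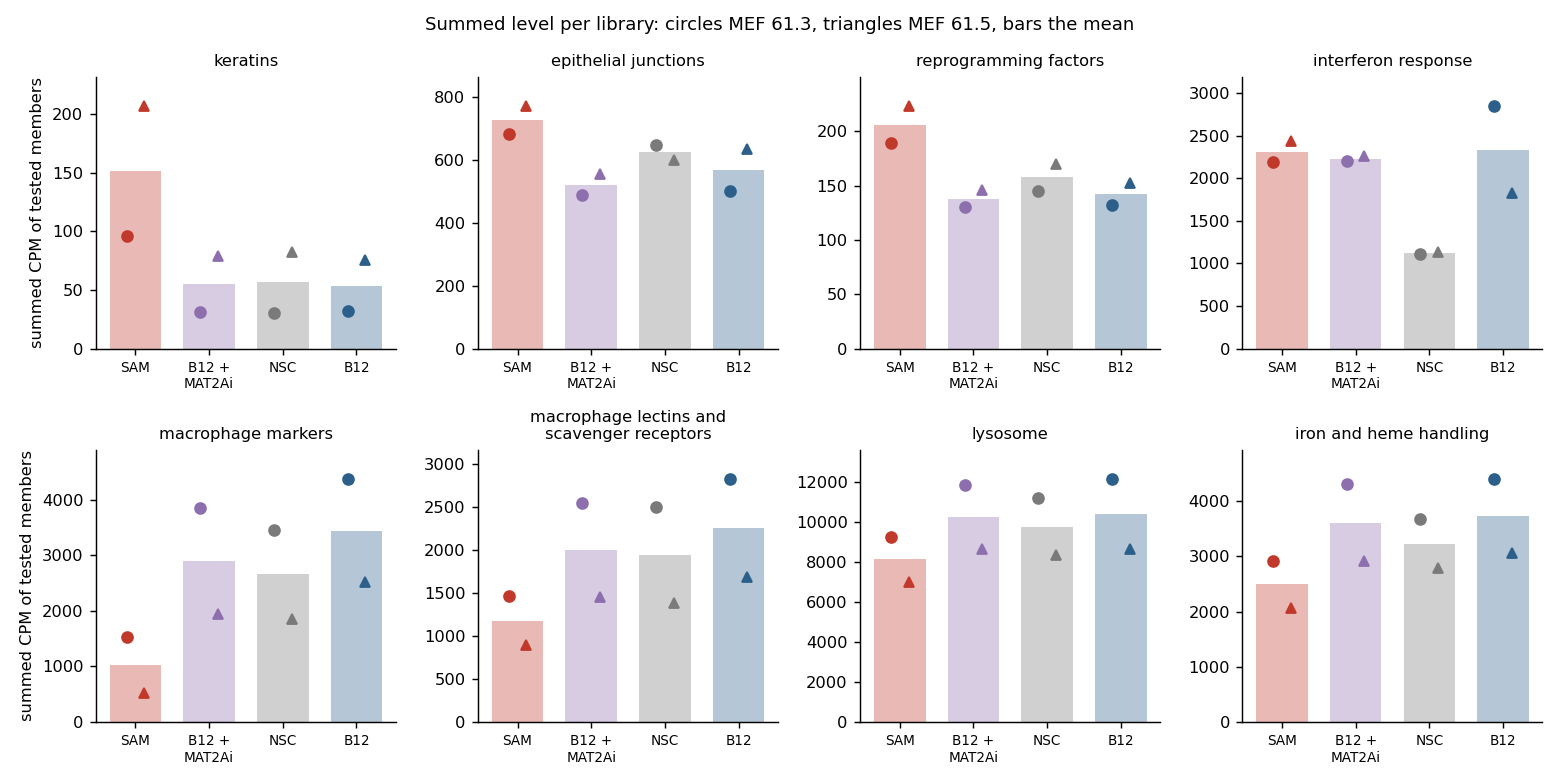
Summed CPM of the tested members of 8 lists in each library, with circles for MEF 61.3, triangles for MEF 61.5 and bars for the mean of both, for SAM, B12 + MAT2Ai, NSC and B12 from left to right. Keratins were at 96.4 and 207 CPM in SAM, against 31.7 and 75.7 CPM in B12, macrophage markers at 1526 and 516 CPM in SAM, against 4366 and 2518 CPM in B12, and the interferon list was lowest in NSC (1115 and 1139 CPM).

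Some genes called against B12 had another value in NSC. Ccl2 had a log2 fold change of -0.75 against B12 and -0.01 against NSC, with 116 and 87.7 CPM in NSC. Adh7 had 0.80 and 0.07, with 25.3 and 23.9 CPM in NSC. Siglec1, the sialoadhesin of macrophages, had -1.55 and -0.35, with 42.7 and 16.1 CPM in NSC. In these 3 genes the NSC libraries were near the SAM libraries, and the tests of SAM against NSC were not passed (edgeR adjusted p = 0.96, 0.64 and 0.051). Klf4, the cassette gene with the smallest change, had 0.35 against B12 and 0.14 against NSC (adjusted p = 0.14). Of the 10 called NRF2 and glutathione genes 3 were called the same way against NSC and 5 against B12 + MAT2Ai. Mmp12 differed more from the other treatments than from B12, at -1.39 against B12, -2.36 against B12 + MAT2Ai and -3.00 against NSC. Its levels were 16.6 and 4.87 CPM in SAM, 80.6 and 27.8 CPM in B12 + MAT2Ai, 123 and 45.3 CPM in NSC and 36.1 and 16.6 CPM in B12. Abcg1 had -1.07 against B12 and -3.80 against B12 + MAT2Ai, with 20.5 and 10.1 CPM in B12 + MAT2Ai.

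Interferon response genes did not move together in the 2 embryos. Of 29 tested 2 were called. Ifitm1, a membrane protein that blocks virus entry, was higher at 26.5 and 24.6 CPM in SAM, against 20.8 and 18.4 CPM in B12. Oas3, a sensor of double-stranded RNA, was lower at 1.68 and 1.47 CPM in SAM, against 8.83 and 2.16 CPM in B12. In all, 24 of the 29 were lower in SAM in MEF 61.3 and higher in SAM in MEF 61.5. Their summed level was 2185 and 2440.0 CPM in SAM, against 2844 and 1823 CPM in B12. For Oas3 the call rests on the B12 library of MEF 61.3, without which its log2 fold change was -0.69 (edgeR adjusted p = 0.15). Leaving out that library gave 17 interferon genes called higher in SAM, and leaving out the B12 library of MEF 61.5 gave 17 called lower.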

How the data were processed

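Polyadenylated RNA of MEF cultures was sequenced as stranded single-end reads. The deposited table holds whole-number read counts for each gene, neither filtered nor scaled. Per the submitters' processing notes and the study's methods, alignment used STAR 2.5.2b and the mm10 (GRCm38) genome, and the authors then counted reads with featureCounts for the reverse strand and summed technical replicates. How reads that match several genes were handled is not given in the sources used here, and genes with near-identical copies are uncertain for that reason. Of 55487 genes, 55141 were matched by identifier to a GENCODE annotation of GRCm38.

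The 8 libraries (27498180 to 38565685 reads) were fitted together with edgeR 4.0.16 in R 4.3.3: filterByExpr with a minimum count of 10 (19392 genes), TMM scaling, and a quasi-likelihood test with treatment and embryo as terms, adjusted by Benjamini-Hochberg at 0.05. The embryo is a block because libraries of the same number come from the same MEF line. Deviations of same-numbered libraries correlated at 0.42 to 0.56 between treatments. Replicates differed by more than counting noise (27.3 to 29.5 times in variance). On the same measure the SAM and B12 libraries of one embryo differed by a like amount, 29.4 times in MEF 61.3 and 24.7 times in MEF 61.5. p-values rest on 3 residual degrees of freedom and a pooled spread. The study's own test for this comparison is not given in the sources used here.

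Gene lists (50, with 1193 distinct genes, 1049 of them tested and 271 called) and the members described were chosen with earlier results of these data known, so no list carries a test of its own. A list is given by its counts and median. Named genes were the 25 higher and 25 lower with the largest fold change and a mean of at least 3 CPM, the 10 higher and 10 lower with the largest CPM difference, list members, and called genes within 500 kb of 3 others of the same direction. Promoter windows come from RefSeq (GRCm38.p6). Alternatives were DESeq2 1.42.0, other scaling and filters, robust estimation, a minimum fold, the fit without the block, and leaving out each library. The fit was tested on simulated data drawn with its own estimates of spread. It recovered 88% of 1.5-fold changes set in well-counted genes, with 16 false calls. Genes with few reads, and a spread unlike the estimate, were not covered. Intervals on read ratios are exact and cover counting error only.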

Additional observations from a re-analysis of the deposited data

Results flagged for a closer look

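The interferon response list moved in opposite directions in the 2 embryos. Over its 29 tested members the median log2 fold change of SAM over B12 was -0.41 in MEF 61.3 and 0.51 in MEF 61.5, with 25 members lower in SAM in the first and 27 higher in SAM in the second. The difference was not tested, since each embryo has 1 library per supplement. The 2 SAM libraries had summed levels of 2185 and 2440 CPM, against 2844 and 1823 CPM in the 2 B12 libraries, and the NSC libraries had 1115 and 1139 CPM.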

How the results depend on the processing

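The calls depend on the block for the embryo. With no replicate block, SAM against B12 gave 0 calls (0 higher and 0 lower, with 1463 genes at an unadjusted p below 0.05 and 1064 called by DESeq2 with the block), SAM against NSC 1 and SAM against B12 + MAT2Ai 0. DESeq2 called 331 genes higher than in B12 and 733 lower, with 752 adjusted p-values not given, and 1166 against NSC. Tested against a minimum log2 change of 0.5, glmTreat called 509 genes, 166 higher and 343 lower. Leaving out 1 library at a time gave 898 to 1429 calls against B12 (270 to 508 higher, 628 to 936 lower), 605 to 2717 against NSC and 600 to 2168 against B12 + MAT2Ai. The lowest counts came without the SAM library of MEF 61.5 against B12 and NSC and, against B12 + MAT2Ai, when its own library of MEF 61.3 was left out, while without the SAM library of MEF 61.3, 1095 genes were called against B12 and 1004 against B12 + MAT2Ai. Against B12 + MAT2Ai, 845 were called without SAM of MEF 61.5 and 619 without B12 + MAT2Ai of MEF 61.5. Against NSC, 620 and 936 were called without NSC of MEF 61.3 and of MEF 61.5. With an arm of 1 library, that library is assumed to vary like the others. Fits on the SAM and B12 libraries alone gave 1171 calls, DESeq2 size factors 1539, no filter 2085 of 35105 genes tested, a filter of 1 CPM 1426, robust estimation 1634 and scaling without the myeloid lists 1513. Of 466 named genes none changed sign under these alternatives while called in either fit. Some had no value under DESeq2, in the fit on SAM and B12 alone or with the 1 CPM filter. Without 1 of the SAM or B12 libraries, 3 to 5 changed sign but were called in neither fit. The call was lost by 82 genes under DESeq2, 82 in the fit on SAM and B12 alone, 226 under glmTreat and 444 with no replicate block. Others lost it when 1 library was left out. The cause was not tested. Each supplement rests on 2 embryos, no library shows doxycycline alone, and the median SE of a log2 fold change was 0.0993, which limits what small differences can show.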

Other observations

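Several of the leading genes belong to none of the lists. Fetub, a protease inhibitor of the cystatin superfamily, had 7.15 and 13.8 CPM in SAM, against 0.487 and 1.42 CPM in B12 (log2 fold change 3.48 ± 0.20, edgeR adjusted p = 4.2e-06), and Ano1, a calcium-activated chloride channel, had 13.9 and 31.8 CPM in SAM, against 4.01 and 6.83 CPM in B12 (log2 fold change 2.04 ± 0.11, edgeR adjusted p = 4.2e-06). Atp2a3, a calcium pump of the endoplasmic reticulum, had 19.1 and 32.5 CPM in SAM, against 4.53 and 5.36 CPM in B12 (log2 fold change 2.36 ± 0.20, edgeR adjusted p = 2.1e-05). In these 3 genes both SAM libraries lay above both B12 libraries. Among abundant genes, Cd109, a GPI-anchored protein that binds TGF-beta, had 145 and 185 CPM in SAM, against 80.4 and 90.3 CPM in B12 (log2 fold change 0.95 ± 0.07, edgeR adjusted p = 9.7e-06), and Cavin1, a coat protein of caveolae, had 691 and 766 CPM in SAM, against 525 and 597 CPM in B12 (log2 fold change 0.38 ± 0.06, edgeR adjusted p = 0.0022). On the lower side, Slco4a1, an organic anion transporter, had 11.1 and 2.56 CPM in SAM, against 41.4 and 22.8 CPM in B12 (log2 fold change -2.35 ± 0.20, edgeR adjusted p = 2.1e-05), Acod1, which makes itaconate in activated macrophages, had 3.37 and 1.06 CPM in SAM, against 8.46 and 7.12 CPM in B12, and Serpina3n, a secreted protease inhibitor, had 798 and 545 CPM in SAM, against 1076 and 774 CPM in B12 (log2 fold change -0.47 ± 0.06, edgeR adjusted p = 6.2e-04). Slco4a1 and Serpina3n differed in overlap: the groups were separate for the first, while for the second the SAM library of MEF 61.3 (798 CPM) exceeded the B12 library of MEF 61.5 (774 CPM).

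Other lists held calls in smaller numbers, to be read against the 7.71% of all tested genes. Hypoxia and glycolysis had 4 of 23 lower and 1 higher (1 lower without the SAM library of MEF 61.3): Slc2a1, the glucose transporter GLUT1, had 30.2 and 24.9 CPM in SAM, against 39.8 and 33.8 CPM in B12, Pdk1, Aldoa and Ndrg1 had log2 fold changes of -0.43 ± 0.08, -0.29 ± 0.06 and -0.25 ± 0.06, and Egln3, a hypoxia-induced prolyl hydroxylase, was higher at 3.01 and 6.68 CPM in SAM, against 1.29 and 2.31 CPM in B12. Matrix proteases had 3 of 19 lower (Mmp8, Mmp9 and Mmp12) and Mmp13, a collagenase of stromal cells, higher at 69.7 and 59.6 CPM in SAM, against 57.8 and 46.0 CPM in B12. Mmp9, a gelatinase, had 111 and 23.1 CPM in SAM, against 145 and 43.1 CPM in B12 (log2 fold change -0.60 ± 0.11, edgeR adjusted p = 0.0061), with the embryos further apart than the supplements. The unfolded protein response had 2 of 14 lower, Sdf2l1 and Edem1 at -0.51 ± 0.10 and -0.32 ± 0.06. Of 14 immediate early genes 1 was called, and of 18 amino acid response genes 3 (1 higher and 2 lower). Atf3, a stress-induced transcription factor in both of these lists, had 3.93 and 2.503 CPM in SAM, against 8.26 and 5.47 CPM in B12 (log2 fold change -1.09 ± 0.11, edgeR adjusted p = 9.7e-05). In contractile and YAP target genes, 1 of 20 was higher, Actg2, a smooth muscle actin, at 13.7 and 18.5 CPM in SAM, against 7.25 and 10.96 CPM in B12, and 1 lower, Ccn2, at 27.9 and 77.9 CPM in SAM, against 39.8 and 102 CPM in B12 (log2 fold change -0.44 ± 0.06, edgeR adjusted p = 8.2e-04).

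Among genes with a mean below 1 CPM, 77 of 3826 were higher (2.01%) and 35 lower (0.915%). Among those above 100 CPM, 30 of 1917 were higher (1.56%) and 108 lower (5.63%). Between them, genes at 1 to 10 CPM had 3.93% higher and 6.37% lower, and those at 10 to 100 CPM 2.72% and 5.71%. The shares over all tested genes were 2.78% higher and 4.93% lower. A pair of genes chosen after their values were seen was called in opposite directions against B12 and NSC: Neat1, a nuclear noncoding RNA, had log2 fold changes of 0.29 and -0.28, and Nlrc5, a regulator of MHC class I, had -0.64 and 0.66.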
